A study of Homo sapiens with 6 samples.

Results

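The 43 genes described here belong to the interferon and innate sensing system: 28 induced effector genes, 4 sensing genes, 5 transcription factors and 6 receptor and kinase genes. They were chosen by name, as the rows of the deposited read count table whose gene name equals a listed member, and each of the 43 names matched 1 of the 58735 genes in the table. Of these, 33 had enough reads to be tested, among 15054 tested genes. RNAseq had been run on 2 human prostate cancer cell lines with 3 biological replicates each, and the question behind the comparison is which transcripts differ in cells that became resistant to a taxane. C4-2B is an established castration resistant line, and it served as the untreated parent. RC4-2B is its subclone resistant to cabazitaxel (CBZ), a taxane that binds tubulin, and it was produced over 4 months by repeated 72 h exposures to CBZ, each followed by recovery, with the dose raised from 0.1 nM to 20 nM. Cells of both lines were grown for 72 h before RNA isolation, and the study's methods name no drug in that medium. For the medium, the labels give 10% fetal bovine serum, whereas the methods list charcoal-stripped serum beside it. RC4-2B is a single resistant line, so its differences from C4-2B cannot be told apart from those that any other subclone of C4-2B might carry.

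Cells detect foreign or misplaced nucleic acid with sensors such as RIG-I and MDA5 for RNA and cGAS for DNA. The sensors act through adaptors (MAVS for the RNA sensors) and the factors IRF3 and IRF7, which switch on interferon genes. Secreted type I interferon binds a receptor made of IFNAR1 and IFNAR2, and interferon gamma binds IFNGR1 with IFNGR2. The receptors signal through the JAK kinases to STAT2 and IRF9, which take part in binding the interferon-stimulated response element (ISRE) in the promoters of antiviral genes. In tumour cells these genes are studied because DNA damage and stress can engage the sensors without a virus, and because lines of the LNCaP family, to which C4-2B belongs, are known for low JAK1.

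The ISRE letters are shown first because they are more frequent in the promoters of this set than in promoters at large. RefSeq windows (GRCh38.p14) reaching from 250 bases before to 50 bases after an annotated start were found for 33 of the 43 members, with DDX58 matched under its current symbol RIGI. They were searched for TTTCNNTTTC, which on the other strand reads GAAANNGAAA. The letters were present for 20 of these 33 members (60.6%), against 1195 of 27305 genes with a window (4.38%). Among induced effectors 19 of 22 had them (86.4%), the exceptions being OAS1, IFI35 and XAF1, whereas among sensors, factors, receptors and kinases 1 of 11 did (9.09%), namely IFIH1. The letters TTCNNNGAA of the gamma-activated site (GAS) were in the windows of 10 of the 33 members (30.3%), against 9.38% of genes. A match describes letters in a window and not a bound site. No other spelling of either element was searched, so a window without the letters is not shown to lack the element. The stretches below carry the letters in capitals and run 5′ to 3′ on the gene's strand. They are ISG15, IFITM3 and IFI6, which are among the most abundant members, IFIT1 and PARP14, whose differences between the lines were the largest or the best supported among the higher members, DTX3L, which shares its start region with PARP9, and IFI27, which was nearly silent.
ISG15 (chr1:1013366-1013417, plus strand): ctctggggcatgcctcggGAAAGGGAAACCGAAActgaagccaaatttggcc
IFITM3 (chr11:320868-320930, minus strand): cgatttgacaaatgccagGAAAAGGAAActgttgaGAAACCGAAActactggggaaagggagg
IFI6 (chr1:27672258-27672366, minus strand): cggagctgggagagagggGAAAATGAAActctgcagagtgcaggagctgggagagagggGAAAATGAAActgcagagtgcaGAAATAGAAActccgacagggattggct
IFIT1 (chr10:89392489-89392547, plus strand): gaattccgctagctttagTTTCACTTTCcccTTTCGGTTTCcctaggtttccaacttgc
PARP14 (chr3:122680792-122680837, plus strand): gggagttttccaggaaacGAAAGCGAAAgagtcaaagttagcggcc
DTX3L (chr3:122564314-122564347, plus strand): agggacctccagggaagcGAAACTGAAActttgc
IFI27 (chr14:94110610-94110668, plus strand): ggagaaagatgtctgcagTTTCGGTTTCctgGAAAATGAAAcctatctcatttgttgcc

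Libraries held between 15707134 and 18052517 counted reads. RC4-2B replicate 2 stood apart. Between replicates, the SD of the log2 difference was 0.166 to 0.221 for pairs of C4-2B and 0.245 for RC4-2B replicates 1 and 3, but 0.631 and 0.554 for the pairs with RC4-2B replicate 2. In that library, transcripts rich in G and C read low. The Spearman correlation across genes between transcript GC content and the deviation of replicate 2 from the mean of replicates 1 and 3 was -0.66 over 14987 tested genes, which are not independent replicates, and -0.80 over the 33 tested members. Of the 16 tested members with GC content under 45%, 15 were higher in replicate 2 than the mean of replicates 1 and 3 (median log2 deviation 0.53). All 9 members with GC content of at least 55% were lower than that mean (median -0.64). Each comparison below is therefore given with and without that library where it matters, and the part of GC content in the differences was not tested. As for identity, all 9 prostate luminal markers were detected in every library, with 4 of 9 log2 fold changes positive and 5 negative (median -0.05). KLK3 (-4.33) and TMPRSS2 (-1.08) were called lower in RC4-2B and none higher. Of 10 leukocyte markers, 9 had at most 3 reads in every library and the highest count of any was 5, with a summed level of 0.179 to 0.566 CPM in C4-2B and 0 to 0.375 CPM in RC4-2B. PTPRC, which marks all leukocytes, had 3 reads in 1 library and 0 in the others, and 4 of the 10 markers had 0 reads throughout. Of 8 fibroblast and endothelial markers, 5 had at most 3 reads in every library, and the other 3 (COL1A1, PDGFRB and VWF) were detected in both lines. Their highest count was 585, and the summed level of the 8 was 31.6 to 35.5 CPM in C4-2B and 29.0 to 44.9 CPM in RC4-2B. The log2 fold changes of the 3 ran from -0.84 to 0.31, with 2 positive and 1 negative, and 0 were called by edgeR.

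**Figure D1:**
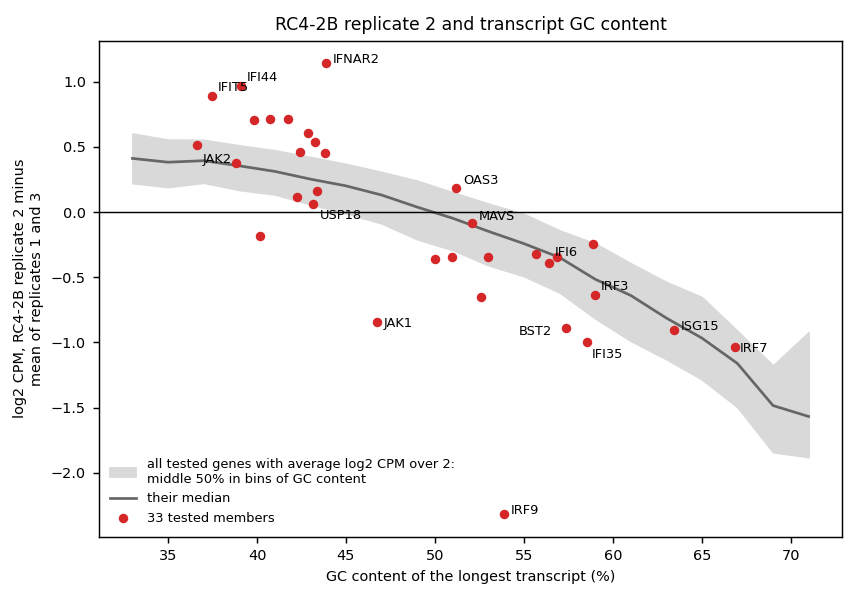
Difference in log2 CPM between RC4-2B replicate 2 and the mean of RC4-2B replicates 1 and 3 (vertical axis) against GC content of the longest transcript in percent (horizontal axis), for the 33 tested members (points) and for all tested genes with average log2 CPM over 2 (grey line, median; band, middle 50% in each bin of GC content). Of the 16 members under 45% GC, 15 sit above 0, and all 9 members of at least 55% GC sit below it, as the median line of all genes does.

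In both lines a few members were abundant and many were nearly silent. Levels of different genes are compared in the deposited FPKM, which divides reads by gene length and library size. Averaged over the 6 libraries, 8 members exceeded 10 FPKM, 23 exceeded 1 FPKM and 20 were below. IFITM3, which blocks entry of viruses at endosomal membranes, had the highest level (mean 48.9 FPKM, range 44.5 to 55.2), followed by the ubiquitin-like modifier ISG15 (45.3, range 27.0 to 52.7). These ranges overlap. IFITM2 (17.5 FPKM), IRF3 (12.6), MAVS (10.8), IFNAR1 (10.7), IFI6 (10.6) and the ISG15 protease USP18 (10.3) came next. By contrast, JAK1 had 0.542 FPKM, IFNAR2 0.148 FPKM and IRF9 0.135 FPKM, beside 10.7 FPKM for IFNAR1 and 3.94 FPKM for STAT2. The spans of IFNAR2 and IRF9 each lie wholly within another protein-coding gene on the same strand (AP000295.1 and AL136295.5), and reads that fall on both genes may not have been counted, so both levels are uncertain. For IFNAR2 the table holds 16, 19 and 18 reads in C4-2B, and 8, 14 and 3 reads in RC4-2B.

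**Figure D2:**
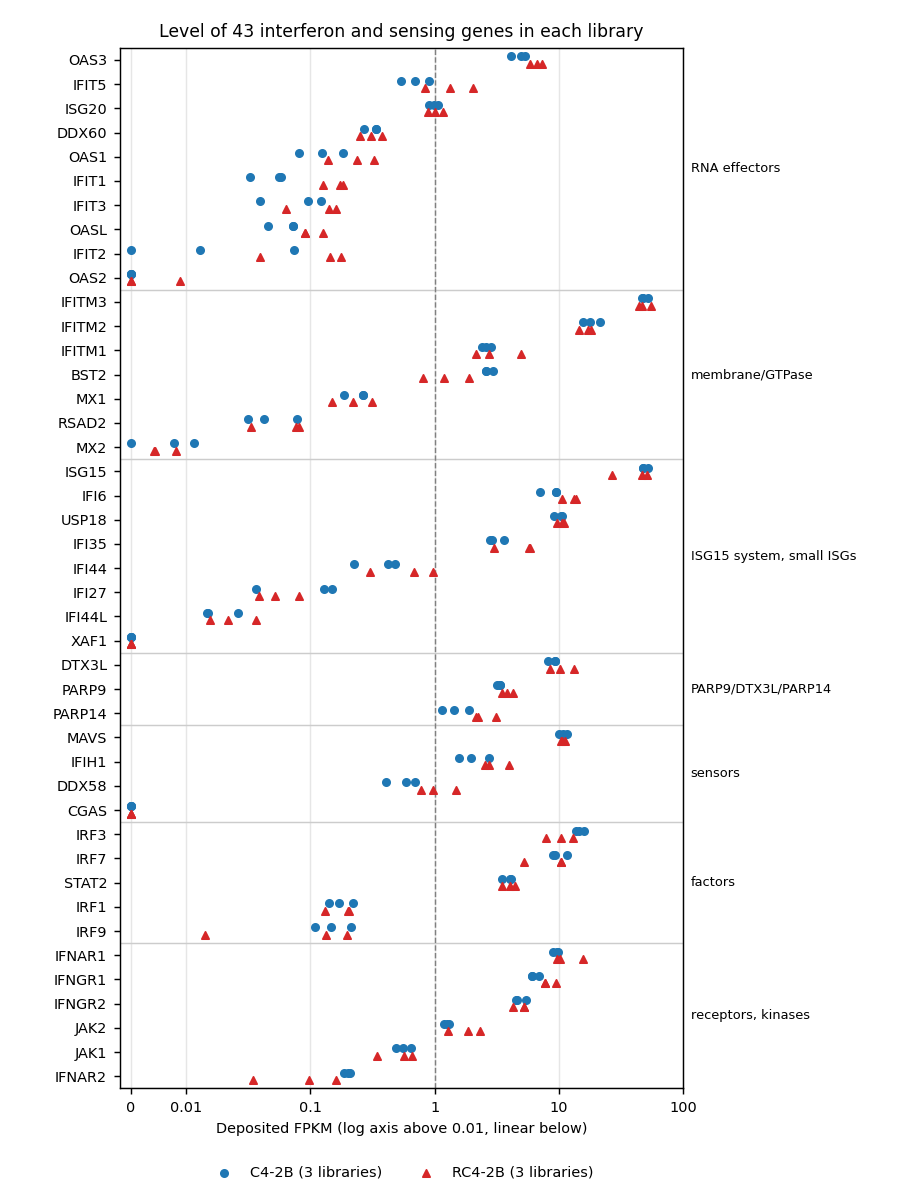
Deposited FPKM of each of the 43 members (log axis above 0.01, linear below) in the 3 C4-2B libraries (blue circles) and the 3 RC4-2B libraries (red triangles), grouped by role, with a dashed line at 1 FPKM. IFITM3 and ISG15 lie highest, between 27.0 and 55.2 FPKM, while CGAS and XAF1 are at 0 in all 6 libraries.

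Ligands were at or near 0 reads. None of 22 interferon genes (alpha, beta, gamma, lambda, epsilon, kappa and omega) could be tested, 20 had 0 reads in all 6 libraries, and the highest count of any was 2. A count of 0 allows up to 3 reads, which is 0.170 to 0.188 CPM in these libraries, for counting error only. As for the members themselves, 10 were too low to test, and 4 of these had at most 3 reads in every library. CGAS, the sensor of cytosolic DNA, and XAF1, an apoptosis factor, had 0 reads throughout. CGAS shares 4055 bases of its span with DDX43 on the other strand, which had 35 to 67 reads. The strand setting of the counting is not given, so CGAS reads in that stretch may not have been counted. OAS2, which makes the RNase L activator, had a single read in RC4-2B replicate 1, and the GTPase MX2 had 0, 3 and 2 reads in C4-2B and 1, 2 and 1 reads in RC4-2B. The translation blocker IFIT2 had 1, 6 and 0 reads in C4-2B and 13, 3 and 11 reads in RC4-2B, where replicate 2 fell among the C4-2B values. Without RC4-2B replicate 2, IFIT2 could be tested but was not called (log2 fold change 2.37, SE 0.77, adjusted p = 0.0553, edgeR). Over the fits with 1 library left out that tested it, the log2 fold change ran from 1.38 to 3.90 (adjusted p from 0.0553 to 0.564, edgeR). IFIT3 (2 to 8 reads), OASL (3 to 8), RSAD2, the antiviral enzyme viperin (3 to 7), IFI27 (3 to 12) and IFI44L (3 to 7) had few reads in either line, so a difference was not detectable at this depth. The adaptor of cGAS, STING, is listed as TMEM173 and had 11, 5 and 12 reads in C4-2B and 1, 5 and 1 reads in RC4-2B, which was also too low for the test.

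No member passed an adjusted p of 0.05 when the lines were compared with the quasi-likelihood test of edgeR. In that test 0 members of 33 were called higher and 0 lower, where 1.08% of all tested genes were called higher and 0.903% lower. At an unadjusted p under 0.05, 8 members were higher (IFIT1, IFIT5, OAS3, DDX58, PARP14, IFI6, IFNGR1 and JAK2), against 12.0% of all tested genes, and 2 were lower (BST2 and IRF3), against 9.42%. The lines did not overlap in 7 members with RC4-2B above (IFIT1, OAS3, IFI6, PARP9, PARP14, DDX58 and IFNGR1), as in 17.0% of all tested genes, and in 3 with RC4-2B below (BST2, IRF3 and IFNAR2), as in 17.1%. The log2 fold changes of the 33 members ran from -1.07 to 1.67, with 20 positive and 13 negative and a median of 0.042, beside a median of 0.0063 over all tested genes. DESeq2 called 1 member higher, PARP14, and 0 lower, with 3.28% and 2.64% of its genes called. Without RC4-2B replicate 2, edgeR called 5 members higher (OAS3, IFI6, IFI35, PARP14 and IFNGR1) and 0 lower, with 6.5% and 6.02% of genes called. In bulk RNA, fewer cells with a transcript and less of it per cell cannot be told apart.

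**Figure D3:**
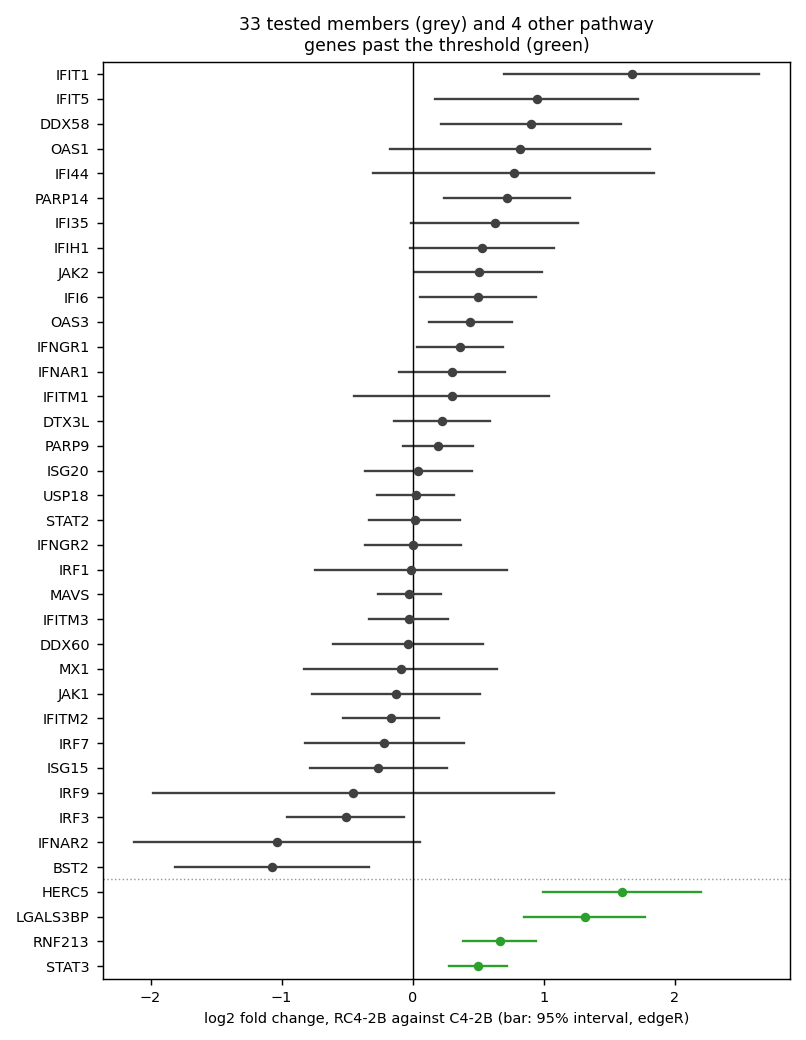
Log2 fold change of RC4-2B against C4-2B with its 95% interval from edgeR (n = 3 libraries per line) for the 33 tested members, sorted, and below the dotted line for the 4 genes of the other pathway lists past the adjusted threshold. Member values run from 1.67 for IFIT1 to -1.07 for BST2, and most intervals include 0.

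Among effectors that bind viral RNA, 5 of the 6 tested had positive log2 fold changes, with a group median of 0.63. IFIT1 (ENSG00000185745, chr10:89392546-89406486), which holds uncapped or incompletely methylated RNA off the ribosome, had 5, 3 and 5 reads in C4-2B and 15, 15 and 11 reads in RC4-2B. All RC4-2B counts lay above all C4-2B counts, at a very low level (0.251 ± 0.071 CPM against 0.813 ± 0.150, SD, n = 3; CPM is the read count relative to the TMM-scaled library size). The log2 fold change was 1.67 (SE 0.43, 95% interval 0.70 to 2.64, adjusted p = 0.0863, edgeR). IFIT1, IFIT2 and IFIT3 lie inside the span of LIPA on the opposite strand, and the strand setting of the counting is not given in the sources used here, so reads of the overlapping genes cannot be told apart. LIPA had 739 to 764 reads in C4-2B and 757 to 1156 in RC4-2B. OAS3 (ENSG00000111331, chr12:112938352-112973249), a long double-stranded RNA sensor of the oligoadenylate synthetase family, was the most abundant of these effectors. Its level was 45.4, 49.0 and 37.7 CPM in C4-2B and 54.0, 64.9 and 60.3 CPM in RC4-2B, without overlap. For OAS3 the log2 fold change was 0.44 (SE 0.14, adjusted p = 0.137, edgeR), and 0.38 without RC4-2B replicate 2, where edgeR called it (adjusted p = 0.0372). After a correction for GC content with all 6 libraries it was 0.46 (adjusted p = 0.0519, edgeR). IFIT5 was 3.10, 4.08 and 2.39 CPM in C4-2B and 3.75, 8.78 and 5.87 CPM in RC4-2B, so that the lowest RC4-2B value fell within the C4-2B range. Its log2 fold change of 0.94 was 0.60 without RC4-2B replicate 2. OAS1 (0.82, 95% interval -0.17 to 1.81, and 0.53 without replicate 2), the exonuclease ISG20 (0.04) and the helicase DDX60 (-0.04) had intervals that include 0.

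Of the membrane and GTPase factors, 4 of the 5 tested had negative log2 fold changes, 3 of the 5 after GC correction, with a group median of -0.09 before it. BST2 (tetherin, ENSG00000130303, chr19:17402939-17405648) retains budding virus at the cell surface. Its level was 3.22, 3.74 and 3.19 CPM in C4-2B and 1.50, 0.969 and 2.35 CPM in RC4-2B, all RC4-2B values below all C4-2B values. The log2 fold change was -1.07 (SE 0.32, 95% interval -1.81 to -0.33, adjusted p = 0.128, edgeR), and -0.81 without RC4-2B replicate 2 (adjusted p = 0.0712). BST2 is rich in GC (57.3%), and its value in replicate 2 was the lowest. After GC correction its log2 fold change was -0.91 (adjusted p = 0.0792, edgeR). IFITM3 was 79.3, 72.2 and 70.1 CPM in C4-2B and 83.2, 64.1 and 69.5 CPM in RC4-2B, with a log2 fold change of -0.03 and an interval of -0.33 to 0.27. IFITM1, IFITM2 and IFITM3 are close paralogs, and the annotated span of IFITM1 lies wholly within that of IFITM2, so their separate counts are uncertain. IFITM1 (0.30, interval -0.45 to 1.04), IFITM2 (-0.17, interval -0.53 to 0.20) and MX1 (-0.09, interval -0.83 to 0.64) overlapped between lines.

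Among ISG15 and the small interferon-induced genes, 4 of the 5 tested had positive log2 fold changes, and the value of IFI35 turned on 1 library. IFI35 (ENSG00000068079, chr17:43006725-43014456), a partner of the interferon-induced protein NMI, was 8.05, 6.40 and 6.15 CPM in C4-2B and 12.9, 6.33 and 12.5 CPM in RC4-2B. RC4-2B replicates 1 and 3 were above every C4-2B library, and replicate 2 was within the C4-2B range. The log2 fold change of 0.62 (SE 0.28, adjusted p = 0.240, edgeR) became 0.89 without replicate 2 (adjusted p = 0.00245), and 0.82 after a correction for GC content with all 6 libraries (adjusted p = 0.0250). Transcript GC content of IFI35 was 58.5%. IFI6 (ENSG00000126709, chr1:27666061-27672218), a small membrane protein that restrains cell death and viral replication sites, was 9.25, 6.85 and 9.17 CPM in C4-2B and 13.3, 9.81 and 12.6 CPM in RC4-2B. These groups did not overlap. For IFI6 the log2 fold change was 0.50 (SE 0.19, adjusted p = 0.199, edgeR), 0.62 without replicate 2 (adjusted p = 0.0210) and 0.64 after GC correction (adjusted p = 0.0317). ISG15 was 55.4, 49.9 and 49.5 CPM in C4-2B and 53.5, 27.2 and 48.5 CPM in RC4-2B, so that RC4-2B replicate 2 alone lay far below the rest. Its log2 fold change was -0.26 with all libraries (interval -0.78 to 0.26), -0.02 without replicate 2 and 0.11 after GC correction. USP18 had a log2 fold change of 0.02 (interval -0.27 to 0.32), and IFI44 reached at most 2.11 CPM (0.77, interval -0.30 to 1.84, and 0.39 without replicate 2).

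PARP9, DTX3L and PARP14 lie near each other on chromosome 3, and the first pair works as an ADP-ribosylation and ubiquitin ligase complex. PARP14 (ENSG00000173193, chr3:122680618-122730840), a mono-ADP-ribosyltransferase, was 16.9, 13.6 and 21.9 CPM in C4-2B and 26.1, 35.1 and 24.9 CPM in RC4-2B. All RC4-2B values were above all C4-2B values. The log2 fold change was 0.72 (SE 0.21, 95% interval 0.24 to 1.20, adjusted p = 0.120, edgeR). It was 0.71 by DESeq2 (adjusted p = 0.0397) and 0.55 by edgeR without RC4-2B replicate 2 (adjusted p = 0.0316). GC correction with all libraries gave 0.57 (adjusted p = 0.0590, edgeR), and the replicate number as a block gave 0.73 (adjusted p = 0.146, edgeR). Leaving out each library in turn gave adjusted p from 0.0316 to 0.411. PARP9 was 33.6, 32.2 and 33.2 CPM in C4-2B and 34.6, 40.5 and 38.0 CPM in RC4-2B, a narrow gap without overlap (log2 fold change 0.19, interval -0.08 to 0.46). DTX3L was 60.6, 61.4 and 53.6 CPM in C4-2B and 55.7, 83.1 and 66.4 CPM in RC4-2B, with overlap (0.22, interval -0.14 to 0.59, and 0.06 without replicate 2). PARP9 and DTX3L share 340 bases at their starts on opposite strands.

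**Figure D4:**
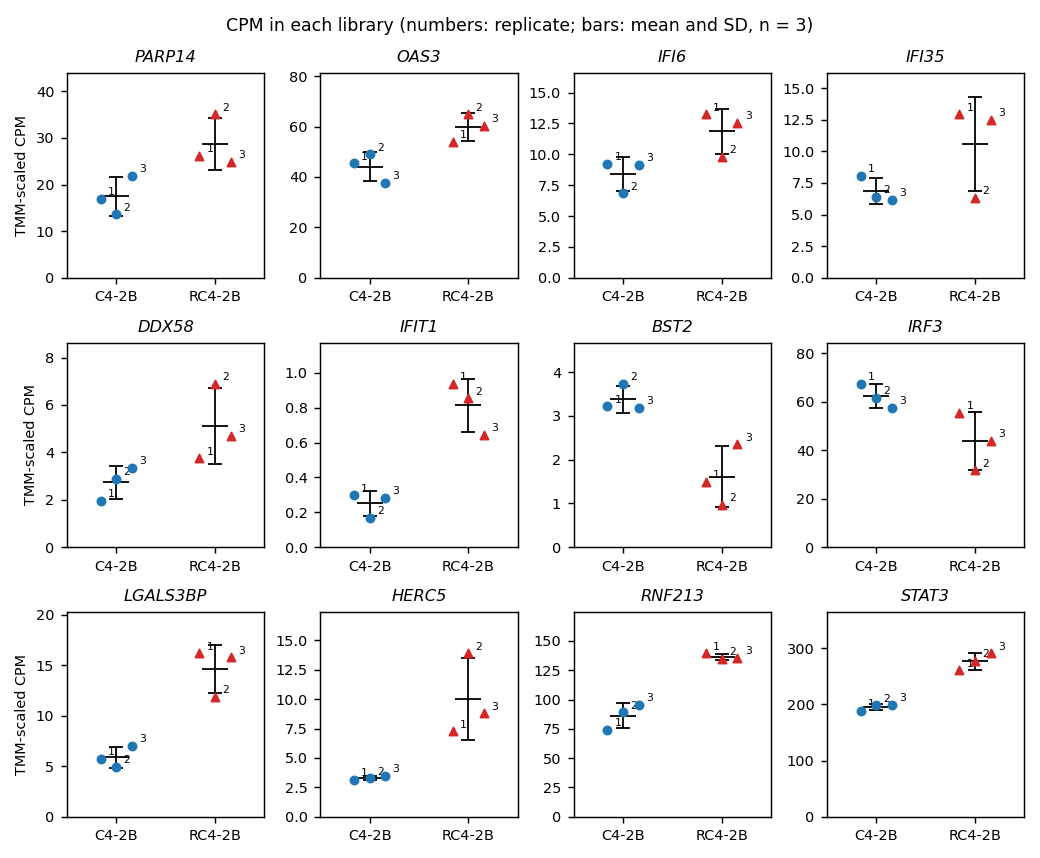
TMM-scaled CPM in each library of 8 members and, in the bottom row, of 4 other pathway genes. Blue circles are C4-2B, red triangles are RC4-2B, digits give the replicate and black bars the mean and SD (n = 3), with every vertical axis starting at 0. In IFI35 the RC4-2B replicate 2 value of 6.33 CPM sits among the C4-2B values while replicates 1 and 3 are at 12.9 and 12.5 CPM.

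Of the sensors, DDX58 (RIG-I, a helicase that reads RNA ends) was 1.97, 2.89 and 3.36 CPM in C4-2B and 3.75, 6.90 and 4.70 CPM in RC4-2B, without overlap. DDX58 had a log2 fold change of 0.90 (SE 0.30, interval 0.22 to 1.59, adjusted p = 0.155, edgeR) and 0.62 without RC4-2B replicate 2 (adjusted p = 0.132). IFIH1 (MDA5, a helicase that reads long double-stranded RNA) was 8.95, 11.3 and 15.4 CPM in C4-2B and 15.5, 21.7 and 14.3 CPM in RC4-2B, and the lines overlapped (log2 fold change 0.53, interval -0.02 to 1.08, and 0.32 without replicate 2). The adaptor MAVS, which both helicases use, was the most abundant sensing gene in CPM, at 132, 142 and 152 CPM in C4-2B and 137, 134 and 147 CPM in RC4-2B. Its log2 fold change was -0.03 with an interval of -0.27 to 0.22.

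Of the factors, 4 of 5 had negative log2 fold changes with a group median of -0.22, but 2 of 5 after GC correction. IRF3, the constitutive factor activated by the sensors, was 67.5, 61.8 and 57.7 CPM in C4-2B and 55.6, 31.7 and 43.9 CPM in RC4-2B, all below C4-2B. IRF3 had a log2 fold change of -0.51 (SE 0.19, adjusted p = 0.192, edgeR), -0.33 without RC4-2B replicate 2 (adjusted p = 0.0659) and -0.29 after GC correction (adjusted p = 0.108). IRF3 shares 734 bases with BCL2L12 on the other strand, whose log2 fold change was -0.57 (adjusted p = 0.264, edgeR). IRF7, the inducible amplifier of interferon transcription, was 34.0, 27.3 and 26.1 CPM in C4-2B and 30.3, 14.7 and 30.1 CPM in RC4-2B. As with ISG15, replicate 2 alone was low. The log2 fold change of IRF7 was -0.22 with all libraries and 0.05 without replicate 2, and its GC content of 66.8% was the highest of the tested members. STAT2 was 23.7, 28.0 and 27.8 CPM in C4-2B and 30.6, 22.6 and 27.1 CPM in RC4-2B (0.01, interval -0.33 to 0.36). IRF1, the factor of the interferon gamma response, was 1.91, 1.25 and 1.48 CPM in C4-2B and 1.75, 1.08 and 1.76 CPM in RC4-2B (-0.01, interval -0.74 to 0.72). Its whole span of 9190 bases is shared with AC116366.3, and 7094 bases with C5orf56, both on the other strand, so its count is uncertain too. IRF9, whose count is uncertain because its whole span is shared with AL136295.5, had 15, 11 and 8 reads in C4-2B and 9, 1 and 14 reads in RC4-2B, with a log2 fold change of -0.45 (interval -1.98 to 1.08) and of 0.08 without replicate 2. The summed level of the 5 factors was 114 to 128 CPM in C4-2B and 119, 70.2 and 104 CPM in RC4-2B replicates 1, 2 and 3.

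Receptor chains had log2 fold changes of either sign. IFNGR1, the ligand-binding chain for interferon gamma, was 25.5, 22.3 and 22.0 CPM in C4-2B and 28.1, 27.2 and 34.2 CPM in RC4-2B, without overlap. Its log2 fold change was 0.36 (SE 0.14, adjusted p = 0.202, edgeR), and without RC4-2B replicate 2 it was 0.42 (adjusted p = 0.0295). After GC correction it was 0.20 (adjusted p = 0.451). Its partner IFNGR2 was 15.2, 14.9 and 17.9 CPM in C4-2B and 17.3, 13.5 and 17.2 CPM in RC4-2B (log2 fold change 0.00, interval -0.37 to 0.37), and it shares 46864 bases of its span with TMEM50B on the other strand. The type I chain IFNAR1 was 62.7, 68.4 and 68.3 CPM in C4-2B and 67.9, 106 and 71.3 CPM in RC4-2B. Replicate 2 was the highest of all 6 libraries, and the log2 fold change was 0.30 with it and 0.07 without it. IFNAR2, the other type I chain, was 0.955, 1.08 and 1.02 CPM in C4-2B and 0.500, 0.798 and 0.176 CPM in RC4-2B, all below C4-2B, with the lowest RC4-2B library at the 3 reads that a count of 0 allows. Its log2 fold change was -1.04 (SE 0.48, interval -2.13 to 0.06, adjusted p = 0.249, edgeR), -1.59 without replicate 2 (adjusted p = 0.0618) and -0.64 without RC4-2B replicate 3. All 35775 bases of its span are shared with AP000295.1, listed at 0 reads in every library, so the IFNAR2 values carry the same uncertainty as those of IRF9.

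Both kinases overlapped between the lines. JAK1 was 3.94, 3.45 and 4.50 CPM in C4-2B and 4.63, 2.34 and 3.94 CPM in RC4-2B (-0.13, interval -0.77 to 0.51). JAK2 was 9.01, 8.78 and 8.14 CPM in C4-2B and 8.82, 15.2 and 12.7 CPM in RC4-2B. For JAK2 the log2 fold change was 0.50 (SE 0.21, adjusted p = 0.222, edgeR) and 0.32 without replicate 2. JAK2 has the lowest GC content of the tested members (36.7%), and its replicate 2 value was the highest.

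Outside the 43, lists of 101 further genes of the same pathways (interferon genes, other interferon-induced genes, other sensing and signalling genes) held 99 genes of the table, of which 52 were tested. In RC4-2B 4 of these were called higher and 0 lower by edgeR, where 1.08% and 0.903% of all tested genes were, with a median log2 fold change of 0.15. The lists were chosen with earlier results of these data known, so these counts only describe them. HERC5 (ENSG00000138646, chr4:88457117-88506163), the main ligase that attaches ISG15 to new proteins, was 3.16, 3.28 and 3.47 CPM in C4-2B and 7.25, 13.9 and 8.81 CPM in RC4-2B. HERC5 had a log2 fold change of 1.59 (SE 0.26, adjusted p = 0.0255, edgeR). HERC5 rose 3.02-fold, while ISG15 and USP18, at the other ends of that conjugation cycle, had intervals that include 0. LGALS3BP, a secreted glycoprotein, was 5.73, 4.93 and 7.00 CPM in C4-2B and 16.2, 11.9 and 15.8 CPM in RC4-2B (log2 fold change 1.31, SE 0.20, adjusted p = 0.0198, edgeR). RNF213, a large ubiquitin ligase, was 74.4, 89.1 and 95.5 CPM in C4-2B and 140, 135 and 136 CPM in RC4-2B (0.66, SE 0.12, adjusted p = 0.0340, edgeR). STAT3, the factor of the interleukin-6 response, was 189, 198 and 199 CPM in C4-2B and 260, 277 and 291 CPM in RC4-2B (0.50, SE 0.10, adjusted p = 0.0421, edgeR). No RC4-2B library overlapped C4-2B in these 4 genes, and their log2 fold changes without RC4-2B replicate 2 were 1.28, 1.44, 0.67 and 0.50 in the order given, all called. That fit called 6 of 53 tested pathway genes higher and 2 lower, where 6.5% and 6.02% of all tested genes were called. Its further calls are not named here. The calls of HERC5, LGALS3BP, RNF213 and STAT3 were lost when any single C4-2B library or RC4-2B replicate 3 was left out. That of RNF213 was also lost without RC4-2B replicate 1 (adjusted p = 0.0507, edgeR). Without a C4-2B library or RC4-2B replicate 3, 0 of the pathway genes were called. Of all tested genes, 13 to 29 were then called higher and 31 to 49 lower, beside 162 and 136 with all libraries. In these fits the log2 fold changes stayed between 1.56 and 1.68 for HERC5 and between 1.20 and 1.45 for LGALS3BP. They stayed between 0.57 and 0.74 for RNF213, and between 0.46 and 0.51 for STAT3. TLR3, the endosomal receptor for double-stranded RNA, was called by DESeq2 but not by edgeR (log2 fold change 2.33, adjusted p = 0.0170, DESeq2). It had 4, 5 and 13 reads in C4-2B and 17, 69 and 23 reads in RC4-2B. Its edgeR log2 fold change fell from 2.31 to 1.50 without replicate 2.

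LGALS3BP, RNF213, STAT3 and the member IFI35 all lie on chromosome 17. The median log2 fold change of 944 tested genes on that chromosome was 0.15, with 66.7% above 0, and 0.22 with 78.7% above 0 without RC4-2B replicate 2. Whether the level of the whole chromosome has a part in these differences was not tested.

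The promoter letters can be set beside the fold changes of all tested genes. Of 405 tested genes with the letters, 4 were called higher and 2 lower (1.48%), against 2.10% of 10518 tested genes with a window but without them. The medians were 0.07 and 0.01 on the log2 scale. Of the tested members, the 16 with the letters had a median of 0.26 and the 12 with a window but without the letters a median of 0.16. IFITM2, USP18, IRF3, IRF7 and IFNAR2 had no window and are in neither group, and the median of all 33 tested members was 0.042. All these medians are from the main edgeR test, with RC4-2B replicate 2 and without GC correction.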

How the data were processed

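Per the submitters' processing notes and the paper, alignment was to GRCh38 with STAR, and the authors deposited whole-number read counts and FPKM for each gene. The counting program, its strand setting and the annotation release are not given in the sources used here. The counts were compared with edgeR 4.0.16 under R 4.3.3 (TMM, filterByExpr with a minimum of 10 counts, quasi-likelihood test, Benjamini-Hochberg adjustment over all tested genes, threshold 0.05), with RC4-2B against C4-2B and no covariate. The deposited FPKM values gave levels. Alternatives were DESeq2 1.42.0, other scalings, no filter, limma 3.58.1 on log2(FPKM + 1) and log2(FPKM + 0.1), the replicate number as a block, a GC offset (lowess, span 0.2, GENCODE 44 longest transcript, known for 99.6% of tested genes) and each library left out. The fits were also run on simulated counts. Those counts held no trend with GC content, so the run does not cover the deviation of RC4-2B replicate 2. Replicates are biological per the labels. Members and lists were chosen with earlier results of these data known. Values in each library are given for members called by edgeR, DESeq2 or edgeR without RC4-2B replicate 2, for those with non-overlapping groups and an absolute log2 fold change of at least 1, for the most abundant member of each role, and for receptors, kinases and factors. Of the other lists, genes called in the main edgeR test or by DESeq2 are named, and genes called only under other alternatives are not. IFIT5, DDX58, IFIH1, PARP9, DTX3L, TMEM173 and the members too low to test were added to these after their values were seen. Intervals and floors cover counting error or the spread of 3 libraries only.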

Additional observations from a re-analysis of the deposited data

How the results depend on the processing

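Whether replicate numbers pair the lines could not be settled. Same-number correlations of deviations were 0.32, 0.18 and -0.07, and not every library correlated best with its own number. The deviation of RC4-2B replicate 2 enters these values. With the replicate block, 0 members, 2 pathway genes and 55 genes in all were called higher and 74 lower, and RNF213 and STAT3 lost their calls (edgeR adjusted p = 0.0651 and 0.0744). All genes called (162 higher, 136 lower) became 500 and 402 with DESeq2, 604 and 646 without the filter, 46 and 58 with limma on log2(FPKM + 1), 39 and 47 with a pseudocount of 0.1, 13 and 23 with limma and no filter, 654 and 490 with GC correction, 633 and 557 with GC correction and block, 1036 and 1009 with GC correction without RC4-2B replicate 2, and 13 to 1000 and 31 to 925 with each library left out. Members called higher (0) became 1 with DESeq2 (PARP14), 2 without the filter (IFIT5 and PARP14), 2 with GC correction, 3 with GC correction and block, 4 with GC correction without RC4-2B replicate 2 and 0 to 5 with each library left out. Members called lower (0) became 1 without the filter (BST2) and 1 with GC correction without RC4-2B replicate 2 (IFNAR2, -1.64). Limma called 0 members under each of its settings. Pathway genes called higher (4) became 1 with limma at either pseudocount, 0 with limma and no filter, 7 with GC correction without RC4-2B replicate 2 and 0 to 6 with each library left out, and those called lower became 2 without the filter, 1 with GC correction without RC4-2B replicate 2 and 0 to 2 with each library left out. The median of 0.042 over 33 members became 0.11 and 0.13 with limma at pseudocounts 1 and 0.1, where only 22 members were tested. These medians are therefore of a different set of members. With limma and no filter, the median of the same 33 members was 0.045. It was 0.11, 0.11 and 0.12 under the GC corrections (alone, with block, without RC4-2B replicate 2), and 0.044 to 0.16 with each library left out. The cause of these shifts was not tested.

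The sign of the log2 fold change turned under some alternative for the members below, among them IRF9 (-0.45 with all libraries), IFITM1 (0.30), ISG15 (-0.26) and IRF7 (-0.22). Under the GC corrections in that order, the log2 fold change was 0.22, 0.21 and 0.12 for IFITM3, 0.11, 0.11 and 0.12 for ISG15, -0.11, -0.11 and -0.050 for USP18, 0.016, 0.018 and 0.0072 for MAVS, 0.036, 0.032 and 0.20 for IRF1, and 0.30, 0.30 and 0.24 for IRF7. IFITM2 was 0.0040 with GC correction and block, IRF9 was 0.11 and JAK1 0.065 with GC correction without RC4-2B replicate 2, and IRF1 was 0.00092 with limma and no filter. IFNGR2 was -0.0081 with DESeq2, -0.0084 with RLE scaling, -0.0025 without the filter, -0.0026 with the block, and -0.011 and -0.013 with GC correction without and with the block. With each library left out, ISG20 ran from -0.076 to 0.15, DDX60 from -0.18 to 0.092, IFITM1 from -0.14 to 0.52, IFITM3 from -0.14 to 0.047, MX1 from -0.38 to 0.14, USP18 from -0.047 to 0.066, MAVS from -0.078 to 0.021, STAT2 from -0.089 to 0.12, IRF1 from -0.15 to 0.19, IRF7 from -0.38 to 0.055, IRF9 from -1.10 to 0.085, IFNGR2 from -0.057 to 0.11 and JAK1 from -0.33 to 0.11. Low counts limit IFIT1, IFNAR2, IRF9 and the 10 members too low to test; for IFNAR2 and IRF9 depth and reads lost to an overlapping gene cannot be told apart.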
